A study of Mus musculus with 20 samples.

Results

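The genes described here are 10 genes of epithelial-to-mesenchymal transition (EMT), measured by RNA-seq of whole mouse kidney. They are the transcription factors Snai1, Snai2, Twist1, Twist2, Zeb1, Zeb2 and Prrx1, the cadherins Cdh1 and Cdh2, and the intermediate filament gene Vim. They were chosen by symbol, and all 10 were found among 55471 gene identifiers in the count table and passed the filter on low counts. There were 20 libraries from female mice labelled 2 months old, 1 library per mouse, in 6 groups and 2 experiments. In the first experiment, TERT KO/KO mice or their TERT WT/WT littermates on a BALB/c background (the knockout line was backcrossed for 10 generations) received 1 intravenous dose of 12 mg/kg Adriamycin (ADR, doxorubicin, which injures podocytes) or saline, and kidneys were taken 18 days later. It had 3 TERT WT/WT ADR, 4 TERT WT/WT saline, 3 TERT KO/KO ADR and 3 TERT KO/KO saline libraries. TERT is the catalytic subunit of telomerase, and the knockout is constitutive and first-generation, so that no cell type of these mice is spared. In the second experiment, on a mixed background, 3 i-TERTci mice (actin-rtTA+;tetOp-TERTci+, each transgene heterozygous, with ubiquitous doxycycline-regulated expression of catalytically inactive TERT) were set against 4 actin-rtTA+ mice that lack the tetOp-TERTci transgene. Both groups drank doxycycline for 15 days and were collected 8 days after its withdrawal (reversal day 8, R8).

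Libraries held 39323498 to 48399322 counted reads. The TERT KO/KO ADR library labelled replicate 2 differed from all others. Alb, the serum albumin gene of hepatocytes, took 26.1% of its counts, against at most 82.9 CPM (counts scaled to a library total of 1000000) in any other library. Its summed CPM over 10 loop and distal nephron markers was 31.5, against 3738 to 8566 elsewhere. This library was left out of group means and fits, so that TERT KO/KO ADR values rest on 2 libraries, and it is described by itself below. Tert, the targeted gene, had 105 to 210 counts in the 2 remaining TERT KO/KO ADR libraries against 164 to 379 in TERT WT/WT ADR, and 51 to 132 counts in TERT KO/KO saline against 122 to 187 in TERT WT/WT saline. A count over the whole gene does not separate the deleted part, so it does not check the genotype. In the second experiment Tert had 230 to 1086 counts in i-TERTci and 87 to 164 in actin-rtTA+ libraries.

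In EMT, epithelial cells loosen their junctions and take on traits of mesenchymal cells. Snail, Twist and ZEB proteins are the classical drivers: they bind E-box motifs in DNA, and Snail and ZEB proteins repress Cdh1, which encodes E-cadherin of epithelial adherens junctions. Cdh2 encodes N-cadherin, and the exchange of E-cadherin for N-cadherin is a common readout of the process, as is Vim, which encodes vimentin. In the kidney, these genes are also active outside any transition: Vim is made by podocytes, endothelial cells, fibroblasts and leukocytes, Zeb2 by macrophages, and Cdh2 by proximal tubule cells. Whole-kidney RNA sums over all of them, and more cells of a type cannot be told apart from more RNA per cell.

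The promoters of 3 members are shown because Vim and Twist2 gave the largest fold changes below, and Snai1 is a Snail-family factor that itself carries an E-box. They are RefSeq sequences on GRCm38.p6, from 250 bases before to 50 bases after the transcript start, on the plus strand, with E-boxes (CANNTG), GC boxes (GGGCGG) and TATAAA, searched on both strands, in capitals. These are Vim (chr2:13574061-13574360), Twist2 (chr1:91801211-91801510) and Snai1 (chr2:167537945-167538244).
Vim: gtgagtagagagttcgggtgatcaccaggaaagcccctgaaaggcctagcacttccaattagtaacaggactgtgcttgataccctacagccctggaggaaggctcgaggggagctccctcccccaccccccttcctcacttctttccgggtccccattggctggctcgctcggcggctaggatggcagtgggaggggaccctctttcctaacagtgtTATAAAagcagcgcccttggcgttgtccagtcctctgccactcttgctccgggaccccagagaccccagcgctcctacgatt
Twist2: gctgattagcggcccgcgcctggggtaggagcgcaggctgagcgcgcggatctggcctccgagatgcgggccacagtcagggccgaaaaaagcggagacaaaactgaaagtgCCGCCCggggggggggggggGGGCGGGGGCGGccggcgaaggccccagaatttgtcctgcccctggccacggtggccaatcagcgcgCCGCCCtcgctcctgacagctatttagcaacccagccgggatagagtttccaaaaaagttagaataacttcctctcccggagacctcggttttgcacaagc
Snai1: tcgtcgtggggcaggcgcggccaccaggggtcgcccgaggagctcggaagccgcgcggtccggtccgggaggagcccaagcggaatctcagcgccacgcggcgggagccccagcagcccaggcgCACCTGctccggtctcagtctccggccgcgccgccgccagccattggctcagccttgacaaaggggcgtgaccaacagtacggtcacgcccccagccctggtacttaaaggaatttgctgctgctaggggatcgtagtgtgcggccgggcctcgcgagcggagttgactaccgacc
The Vim promoter has 1 TATAAA that begins 32 bases before the start, the Twist2 promoter has 4 GC boxes, and the Snai1 promoter has 1 E-box of the form CACCTG that begins 126 bases before the start. Over all 32851 mouse promoters of the same length, 72.3% hold an E-box, 20.2% hold the form seen in Snai1 on either strand, which is one of the E-boxes, 35.7% hold a GC box and 13.6% hold the TATA motif. These matches are a description of the letters in the windows.

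Levels within a library are compared per kilobase of exon, with all annotated exons of a gene merged. This length was 4574 bases for Cdh1, 4743 for Vim, 11066 for Prrx1 and 19942 for Zeb2. The transcripts in use may be shorter, which would raise a gene's value. The order of genes below, also of Vim and Cdh1, therefore holds for these lengths only. In TERT WT/WT saline kidneys, Cdh1 had the highest value, at 36.0 ± 5.56 CPM per kb (SD, n = 4), followed by Vim at 15.3 ± 3.25 CPM per kb. Snai1 (3.69 ± 0.175 CPM per kb), Snai2 (2.65 ± 0.391 CPM per kb), Zeb2 (1.77 ± 0.218 CPM per kb) and Zeb1 (1.40 ± 0.106 CPM per kb) came next. Twist1 had 0.729 ± 0.116 CPM per kb, and Cdh2 had 0.625 ± 0.123 CPM per kb, a pair whose ranges touch within 1 SD. Prrx1, at 0.292 ± 0.0366 CPM per kb, and Twist2, at 0.112 ± 0.0409 CPM per kb, were lowest. In TERT WT/WT ADR kidneys Vim had 46.0 ± 16.3 and Cdh1 39.5 ± 9.73 CPM per kb (SD, n = 3), a gap smaller than either SD, and in replicate 1 Vim, at 27.2 CPM per kb, was below Cdh1, at 30.8. Vim was above Cdh1 in both TERT KO/KO ADR libraries, at 43.9 against 31.0 and 53.4 against 46.9 CPM per kb. It was also above in each i-TERTci library, at 101 against 47.0, 32.8 against 22.7 and 65.2 against 37.9 CPM per kb.

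On the GRCm38 (mm10) assembly with GENCODE M21 annotation, all 10 are protein-coding genes, and counts cover their exons. Vim lies at chr2:13573927-13582826, Snai1 at chr2:167538195-167542814 and Zeb2 at chr2:44983632-45117395. Twist2 lies at chr1:91801461-91848028 and Prrx1 at chr1:163245119-163313710. Snai2 is at chr16:14705852-14709385, Twist1 at chr12:33957671-33959829 and Cdh1 at chr8:106603351-106670246. Zeb1 is at chr18:5591860-5775467 and Cdh2 at chr18:16588877-16809246. Twist2 shares 46.5% of its exon bases with the antisense transcript Gm29100, which had 0 to 5 counts per library, and Zeb2 shares 3.27% with the antisense transcript Zeb2os, which had 80 to 160. The strand setting of the counting is not given in the sources used here, so reads of these overlaps cannot be assigned to a strand.

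**Figure D1:**
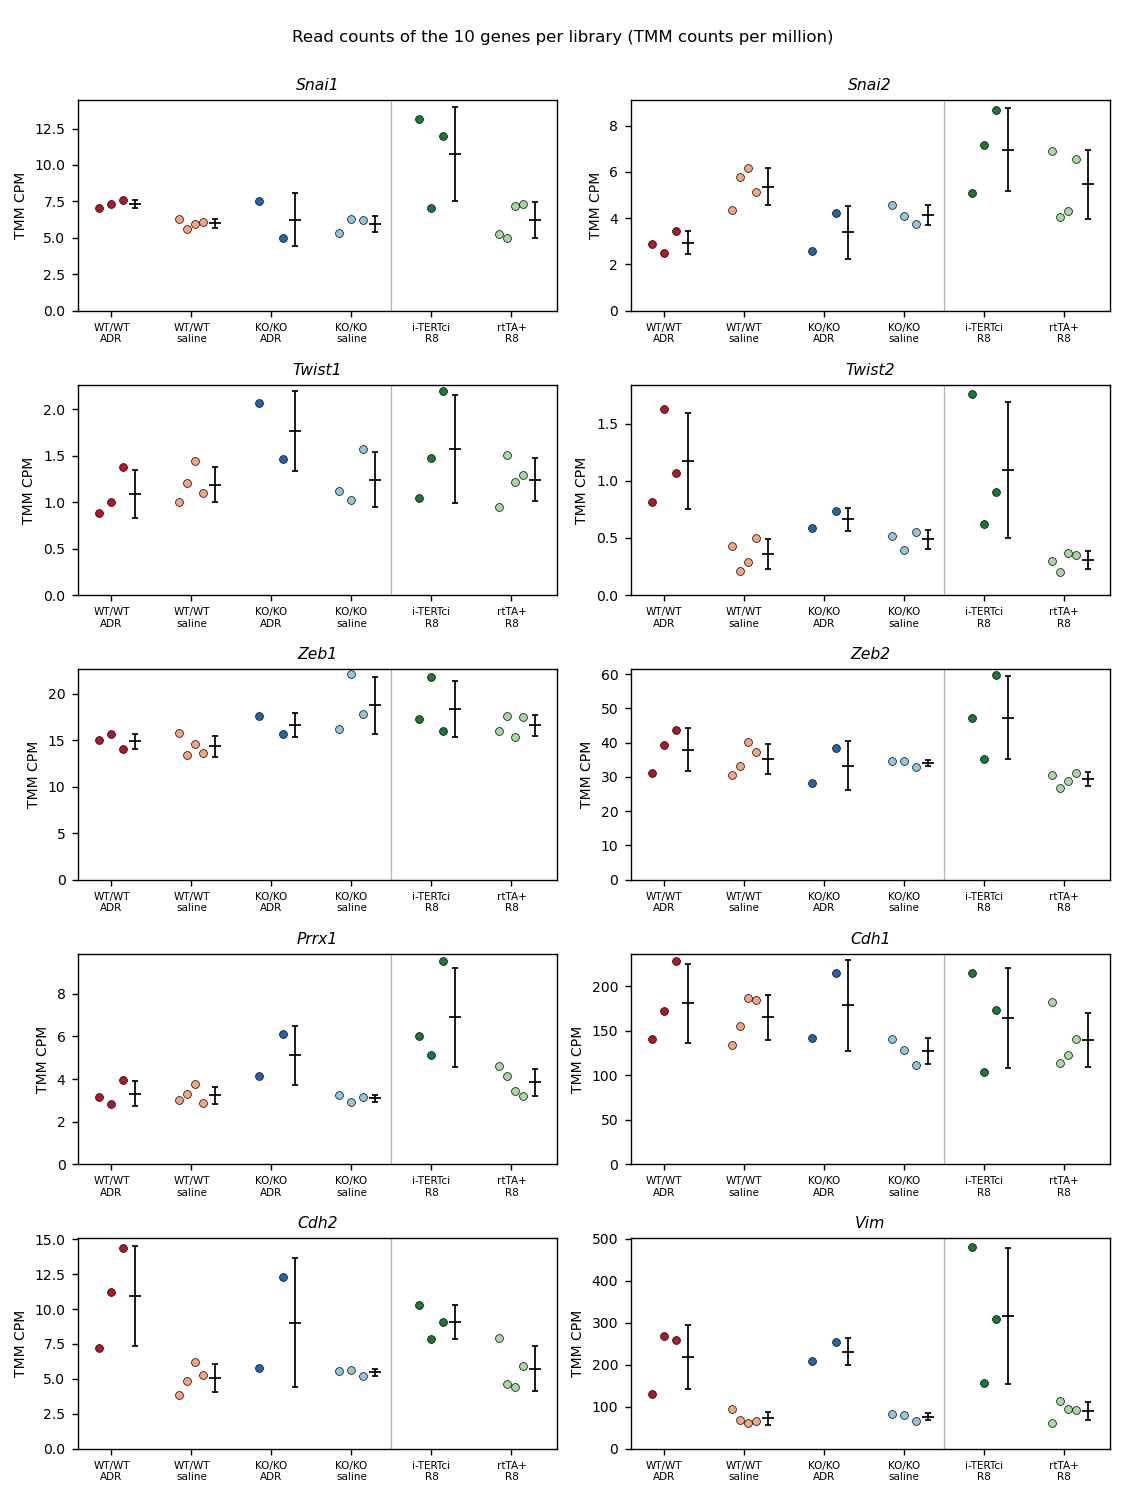
TMM CPM (vertical axis, linear, from 0) of each gene in each of the 19 libraries used, by group along the horizontal axis, where rtTA+ is actin-rtTA+; points are libraries and the bar beside them is the mean ± SD. Vim sits between 129 and 268 in TERT WT/WT ADR libraries, above all TERT WT/WT saline libraries, and Snai2 in TERT WT/WT ADR libraries lies below all of them.

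The first question was how these genes stood 18 days after ADR in kidneys with endogenous TERT. Vim, Twist2 and Cdh2 were higher in TERT WT/WT ADR than in TERT WT/WT saline kidneys, by 3.01, 3.29 and 2.17 times, and Snai2 was lower. Cdh1 and the factors Snai1, Twist1, Zeb1, Zeb2 and Prrx1 did not pass the test. Of the 10 members, 3 passed as higher, where 15.2% of all 19023 genes tested did, and 1 passed as lower, where 12% of all genes did. The test was edgeR's quasi-likelihood F test with Benjamini-Hochberg adjustment over all genes, called at an adjusted p under 0.05. The median log2 fold change of the members was 0.12, and that of all genes was 0.01.

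Vim had 129, 268 and 257 TMM CPM (CPM scaled by the trimmed mean of M values) in the TERT WT/WT ADR libraries, against 95.1, 68.7, 61.3 and 64.6 in TERT WT/WT saline. The groups did not overlap, and ADR replicate 1 lay closest to saline. The log2 fold change was 1.59 (SE 0.23, adjusted p = 0.00143), and Vim passed without each of the 12 libraries in turn (adjusted p up to 0.00812). Vimentin forms the intermediate filaments of mesenchymal cells.

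Among the transcription factors, Twist2, a basic helix-loop-helix factor of mesoderm and dermis, had the largest fold change in this comparison and the lowest level of the factors in TERT WT/WT saline. It had 34, 72 and 63 counts in TERT WT/WT ADR libraries, which is 0.811, 1.63 and 1.07 TMM CPM, against 19, 10, 13 and 19 counts, or 0.431, 0.212, 0.288 and 0.496 TMM CPM, in TERT WT/WT saline. All ADR libraries were above all saline libraries, at a log2 fold change of 1.72 (SE 0.34, adjusted p = 0.00507). Its paralog Twist1 had 0.882, 0.997 and 1.37 TMM CPM in ADR and 0.999, 1.21, 1.44 and 1.10 in saline libraries. The Twist1 groups overlapped (log2 fold change -0.12, SE 0.26, adjusted p = 0.750).

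Of the Snail pair, Snai2 passed and Snai1 did not. Snai2, which encodes Slug, had 2.86, 2.47 and 3.46 TMM CPM in TERT WT/WT ADR kidneys, against 4.36, 5.76, 6.17 and 5.15 in TERT WT/WT saline, with no overlap. Its log2 fold change was -0.87 (SE 0.21, adjusted p = 0.0109), and the call was lost without TERT WT/WT ADR replicate 2 (adjusted p = 0.0626) and with library totals in place of TMM scaling (log2 fold change -0.69, adjusted p = 0.0532). Snai1 had 7.04, 7.34 and 7.56 TMM CPM in ADR, against 6.31, 5.63, 5.93 and 6.06 in saline. These libraries did not overlap either, but the difference was small and did not pass (log2 fold change 0.29, SE 0.15, adjusted p = 0.164).

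Zeb1, Zeb2 and Prrx1 overlapped between ADR and saline. Zeb1 had 14.9 ± 0.826 TMM CPM in TERT WT/WT ADR and 14.3 ± 1.09 in TERT WT/WT saline (SD, n = 3 and 4), Zeb2 had 38.0 ± 6.34 and 35.3 ± 4.35, and Prrx1, a paired-related homeobox factor of mesenchyme, had 3.30 ± 0.585 and 3.24 ± 0.405. The 95% confidence intervals of their log2 fold changes ran from -0.21 to 0.32 for Zeb1, from -0.20 to 0.42 for Zeb2 and from -0.38 to 0.44 for Prrx1. At these widths a 2-fold change of any of the 3 lies outside the interval.

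Of the cadherins, Cdh2 passed and Cdh1 did not. Cdh2 had 7.23, 11.2 and 14.4 TMM CPM in TERT WT/WT ADR libraries, against 3.84, 4.82, 6.22 and 5.30 in TERT WT/WT saline, with no overlap. Its log2 fold change was 1.12 (SE 0.27, adjusted p = 0.0112), and the call was lost without TERT WT/WT ADR replicate 3, where Cdh2 was highest (log2 fold change 0.87, adjusted p = 0.0566). Cdh1 had 141, 173 and 229 TMM CPM in ADR, against 133, 155, 187 and 184 in saline, and the groups overlapped (log2 fold change 0.13, SE 0.19, adjusted p = 0.640).

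A ratio of the cadherins within a library does not depend on scaling between libraries. It was chosen after the values were seen. Per 100 Cdh1 counts there were 5.13, 6.50 and 6.29 Cdh2 counts in TERT WT/WT ADR libraries, against 2.88, 3.11, 3.33 and 2.88 in TERT WT/WT saline. The means were 5.98 ± 0.736 and 3.05 ± 0.215 (SD, n = 3 and 4), with an exact two-sided permutation p = 0.0571, the smallest that 3 against 4 libraries can give, and 0.0762 after adjustment over 4 comparisons. TERT KO/KO saline kidneys had 3.96, 4.40 and 4.64 Cdh2 counts per 100 Cdh1 counts, all above the 4 TERT WT/WT saline kidneys (exact permutation p = 0.0571, adjusted 0.0762). Between these saline groups the log2 fold change was 0.12 (SE 0.27) for Cdh2 and -0.38 (SE 0.20) for Cdh1, and neither passed. A higher ratio is thus not by itself a higher Cdh2. TERT KO/KO ADR kidneys had 4.06 and 5.72 Cdh2 counts per 100 Cdh1 counts, which overlapped TERT KO/KO saline (exact permutation p = 0.600, where the smallest possible is 0.200). In i-TERTci kidneys there were 4.79, 7.58 and 5.23, against 4.37, 4.09, 3.59 and 4.20 in actin-rtTA+ kidneys (exact permutation p = 0.0571, adjusted 0.0762). The value of 7.58 was in replicate 2, where Cdh1 was lowest among i-TERTci kidneys, at 104 TMM CPM. Cdh1 remained the far more counted gene in all 19 libraries.

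**Figure D2:**
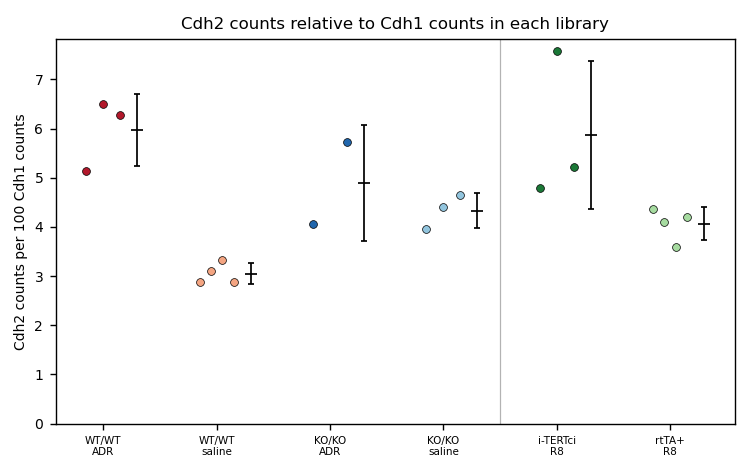
Cdh2 counts per 100 Cdh1 counts (vertical axis, from 0) in each of the 19 libraries, by group, where rtTA+ is actin-rtTA+; points are libraries and the bar beside them is the mean ± SD. The 3 TERT WT/WT ADR libraries lie between 5.13 and 6.50, above the 4 TERT WT/WT saline libraries, which lie at 3.33 or lower.

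The same question in kidneys without TERT gave 1 call. Of the 10 members only Vim passed in TERT KO/KO ADR against TERT KO/KO saline, where 3.83% of all genes passed as higher. The members' median log2 fold change was 0.46, against 0.01 for all genes. In 5 of 10 members both ADR libraries were above all 3 saline libraries, as they were for 21.3% of all genes tested.

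Vim had 208 and 253 TMM CPM in TERT KO/KO ADR libraries, against 81.9, 79.4 and 66.1 in TERT KO/KO saline. The log2 fold change was 1.61 (SE 0.27, adjusted p = 0.00881). The call rests on 2 ADR libraries, and removing TERT KO/KO ADR replicate 3 (adjusted p = 0.0532) or TERT KO/KO saline replicate 3 (adjusted p = 0.0514) ended it.

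Prrx1 had 4.14 and 6.11 TMM CPM in TERT KO/KO ADR, against 3.24, 2.92 and 3.15 in TERT KO/KO saline. Both ADR libraries were above saline, at a log2 fold change of 0.72 (SE 0.22), and Prrx1 missed the threshold in edgeR (adjusted p = 0.0778) and passed it in DESeq2 (adjusted p = 0.0297), where 2 members, Prrx1 and Vim, were called higher, beside 7.26% of all genes. Cdh2 was at 5.76 and 12.3 TMM CPM in TERT KO/KO ADR, against 5.58, 5.65 and 5.17 in TERT KO/KO saline, so that 1 of the 2 ADR kidneys was near saline (log2 fold change 0.72, SE 0.32, adjusted p = 0.188). Cdh1 had 142 and 215 TMM CPM in TERT KO/KO ADR, against 141, 128 and 111 in TERT KO/KO saline (log2 fold change 0.49, SE 0.23, adjusted p = 0.213).

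The factors Twist2 (0.591 and 0.732 TMM CPM in TERT KO/KO ADR, against 0.513, 0.397 and 0.553 in TERT KO/KO saline) and Snai2 (2.57 and 4.20, against 4.57, 4.09 and 3.73) did not pass in these kidneys. Their log2 fold changes were 0.44 (SE 0.41) for Twist2 and -0.29 (SE 0.25) for Snai2. Snai1, Twist1, Zeb1 and Zeb2 overlapped between ADR and saline, with log2 fold changes of 0.07, 0.51, -0.17 and -0.03.

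**Figure D3:**
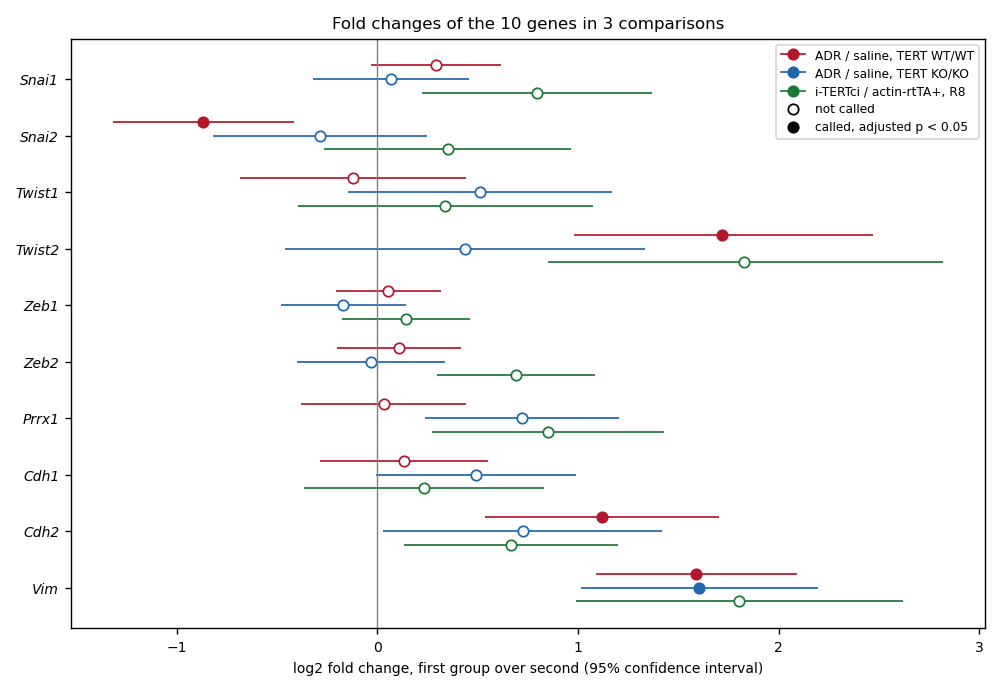
Log2 fold change (horizontal axis) of each gene in 3 comparisons, with 95% confidence intervals as lines; filled points passed an adjusted p of 0.05 in edgeR and open points did not. Filled points are Vim, Twist2, Cdh2 and Snai2 for ADR in TERT WT/WT, and Vim for ADR in TERT KO/KO.

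Whether the genotypes differed in their response was tested directly. No member passed for the difference of the 2 ADR effects, TERT KO/KO less TERT WT/WT, nor did any of the 19023 genes (0%), although 2 members and 2288 genes had an unadjusted p under 0.05. By DESeq2, 0 members and 131 genes passed. These 2 members were Twist2, at a log2 difference of -1.28 (SE 0.54, adjusted p = 0.385), and Prrx1, at 0.69 (SE 0.29, adjusted p = 0.386). The difference for Vim was 0.02, with a 95% confidence interval from -0.77 to 0.80. The interval for Cdh2 ran from -1.31 to 0.52 and that for Snai2 from -0.11 to 1.27, so a call in one genotype and none in the other does not show a difference between them.

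Genotypes compared at the same treatment gave no member either. In saline, TERT KO/KO against TERT WT/WT called 0 of 10 members and 0.00526% of all genes, and Zeb1 alone had an unadjusted p under 0.05, with 16.2, 22.2 and 17.8 TMM CPM in TERT KO/KO against 15.8, 13.4, 14.5 and 13.6 in TERT WT/WT (log2 fold change 0.39, SE 0.12, adjusted p = 0.564). After ADR, 0 of 10 members and 0.0736% of all genes passed. Twist1 had 2.07 and 1.46 TMM CPM in TERT KO/KO ADR, against 0.882, 0.997 and 1.37 in TERT WT/WT ADR (log2 fold change 0.69, SE 0.30, adjusted p = 0.617). Prrx1 had 4.14 and 6.11, against 3.15, 2.81 and 3.95 (log2 fold change 0.63, SE 0.22, adjusted p = 0.506). DESeq2 also called 0 members in both comparisons, which share libraries with those above.

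The second experiment asked the same of kidneys after transient TERTci expression. No member passed in i-TERTci against actin-rtTA+ at R8 in edgeR, where 1 of 17745 genes (0.00564%) did, while 6 of 10 members had an unadjusted p under 0.05. All 10 fitted log2 fold changes were above 0, with a median of 0.68 against 0.02 over all genes. In 4 members, Vim, Twist2, Zeb2 and Prrx1, all i-TERTci libraries were above all actin-rtTA+ libraries, as in 9.01% of all genes tested. DESeq2 called 5 members higher, Vim, Twist2, Zeb2, Prrx1 and Snai1, where it called 8.18% of all genes higher. The edgeR fit called the same 5 without i-TERTci R8 replicate 2, where 15.1% of all genes were called higher.

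Vim had 479, 156 and 309 TMM CPM in i-TERTci kidneys, against 61.9, 113, 93.6 and 92.4 in actin-rtTA+ kidneys. Replicate 2 was the i-TERTci kidney nearest the controls, and it was so for Snai1, Twist2, Zeb2, Prrx1 and Cdh2 too. The log2 fold change of Vim was 1.80 (SE 0.36, adjusted p = 0.0758), and without replicate 2 it was 2.12 (adjusted p = 0.000559).

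Twist2 had 1.76, 0.621 and 0.900 TMM CPM (105, 24 and 48 counts) in i-TERTci, against 0.302, 0.204, 0.368 and 0.354 (14, 8, 16 and 17 counts) in actin-rtTA+, at a log2 fold change of 1.83 (SE 0.43, adjusted p = 0.0780). Zeb2, a zinc-finger homeobox repressor, had 47.1, 35.2 and 59.7 TMM CPM, against 30.6, 26.8, 28.7 and 31.2 (log2 fold change 0.69, SE 0.17, adjusted p = 0.0833). Prrx1 had 6.04, 5.15 and 9.54, against 4.59, 4.13, 3.43 and 3.21 (log2 fold change 0.85, SE 0.25, adjusted p = 0.110). Snai1 had 13.1, 7.07 and 12.0 TMM CPM, against 5.28, 4.97, 7.21 and 7.33, so that replicate 2 fell inside the control range (log2 fold change 0.79, SE 0.25, adjusted p = 0.124).

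Cdh2 had 10.3, 7.87 and 9.07 TMM CPM in i-TERTci, against 7.95, 4.64, 4.40 and 5.92 in actin-rtTA+, and the groups touched (log2 fold change 0.66, SE 0.23, adjusted p = 0.150). Cdh1 had 215, 104 and 173 TMM CPM, against 182, 113, 122 and 141, with overlap (log2 fold change 0.23, SE 0.26, adjusted p = 0.639). Snai2, Twist1 and Zeb1 overlapped as well, with log2 fold changes of 0.35, 0.34 and 0.14.

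Set against the ADR response of TERT WT/WT, which was normalized with the i-TERTci experiment in a joint fit of 19 libraries, no member differed at the threshold (0.00505% of 19783 genes did, and 3 members had an unadjusted p under 0.05). DESeq2 called 0 members as well. Snai2 had the smallest p, and the difference of log2 fold changes was 1.20 (SE 0.33, unadjusted p = 0.00226, adjusted p = 0.434). The 2 experiments differ in strain background as well as in treatment, and these cannot be told apart.

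Genes that act beside the members were described by 5 lists. Their counts stand against the shares of all genes that passed: 15.2% higher and 12% lower in TERT WT/WT ADR, and 3.83% higher and 1.43% lower in TERT KO/KO ADR. With lists this short, a count near those shares is not a result about the list. The lists, like the members, were chosen with earlier results of these data known. A count above those shares is therefore a description and no test of enrichment. Of 20 genes listed as mesenchymal effectors, 11 were higher and 0 lower in TERT WT/WT ADR kidneys, with a median log2 fold change of 1.00. The list includes matrix, adhesion, contractile and protease genes. The 4 with the smallest p were Spp1, the osteopontin gene (log2 fold change 3.35, SE 0.43, adjusted p = 0.00093), Cd44, the hyaluronan receptor (4.78, SE 0.70), Sparc, a matrix glycoprotein (0.98, SE 0.15), and Lox, which cross-links collagen (2.83, SE 0.43). Spp1 already had 1176 ± 70.4 TMM CPM in TERT WT/WT saline (SD, n = 4). Which cells made these transcripts was not tested. In TERT KO/KO ADR kidneys 7 of 20 were higher and 0 lower, with a median of 0.95, led by Spp1 (2.78, SE 0.50), Tagln, a smooth muscle actin-binding gene (1.11, SE 0.21), Sparc (0.88, SE 0.18) and Cd44 (3.75, SE 0.79). At R8 none of the 19 tested passed in i-TERTci, where the median was 1.44 and Cd44 had 61.1 ± 54.5 TMM CPM against 2.85 ± 1.58 in actin-rtTA+ (SD, n = 3 and 4, adjusted p = 0.0758).

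Of 26 epithelial junction genes, 9 were higher and 2 lower in TERT WT/WT ADR kidneys, where 15.2% and 12% of all genes were. The claudins Cldn4 (log2 fold change 2.08, SE 0.32), Cldn3 (2.31, SE 0.36) and Cldn7 (1.20, SE 0.22), which seal tight junctions, and Cdh3, or P-cadherin (2.27, SE 0.39), led the list, and all 4 were higher. In TERT KO/KO ADR kidneys Cdh3 was higher (1.77, SE 0.46) and Cldn10 lower (-0.66, SE 0.15), and 24 did not pass, where 3.83% of all genes were higher and 1.43% lower. In i-TERTci none passed, and Cldn1 had the smallest p (2.20, SE 0.57, adjusted p = 0.0879).

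Among 11 epithelial regulators that oppose EMT factors, 4 were higher and 1 lower in TERT WT/WT ADR kidneys: Klf5 (1.29, SE 0.24), Elf3 (1.15, SE 0.22) and Klf4 (1.46, SE 0.29) were higher, and Ovol1 was lower (-0.54, SE 0.16). Klf4 was the 1 higher in TERT KO/KO ADR (1.44, SE 0.34), and it had the smallest p in i-TERTci (1.11, SE 0.24, adjusted p = 0.0758), where none passed. Of 19 other EMT-linked factors tested, 5 were higher and 2 lower in TERT WT/WT ADR, against 15.2% and 12% of all genes, led by Runx1 (3.11, SE 0.47), Sox9 (3.98, SE 0.65), Sox4 (1.79, SE 0.31) and Sox11 (3.30, SE 0.60). Runx1 was the 1 higher in TERT KO/KO ADR (2.59, SE 0.56). In i-TERTci none of 17 passed, and Sox4 had a log2 fold change of 1.45 (SE 0.32, adjusted p = 0.0758).

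TGF-beta is the best known inducer of EMT in epithelial cells. Of 13 genes on its inputs, 3 were higher in TERT WT/WT ADR kidneys, among them the ligand gene Tgfb1 (log2 fold change 1.00, SE 0.17) and the receptor gene Tgfbr1 (0.55, SE 0.19), and 1 was lower, Bmp7, which opposes TGF-beta in the kidney (-0.85, SE 0.18), where 15.2% of all genes were higher and 12% lower. In TERT KO/KO ADR 1 of the 13 was higher and 0 lower, beside 3.83% and 1.43% of all genes. In i-TERTci none passed, and Tgfb2 had 12.98 ± 0.884 TMM CPM against 5.25 ± 0.856 in actin-rtTA+ (log2 fold change 1.30, SE 0.16, adjusted p = 0.0758). The medians of these lists, in TERT WT/WT ADR, TERT KO/KO ADR and i-TERTci against their controls, were 0.33, 0.32 and 0.20 for junction genes, 0.19, 0.34 and 0.17 for epithelial regulators, 0.20, 0.20 and 0.21 for the other factors, and 0.17, 0.027 and 0.37 for TGF-beta inputs. None of the 5 lists had a call in the comparisons of genotype or of responses.

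**Figure D4:**
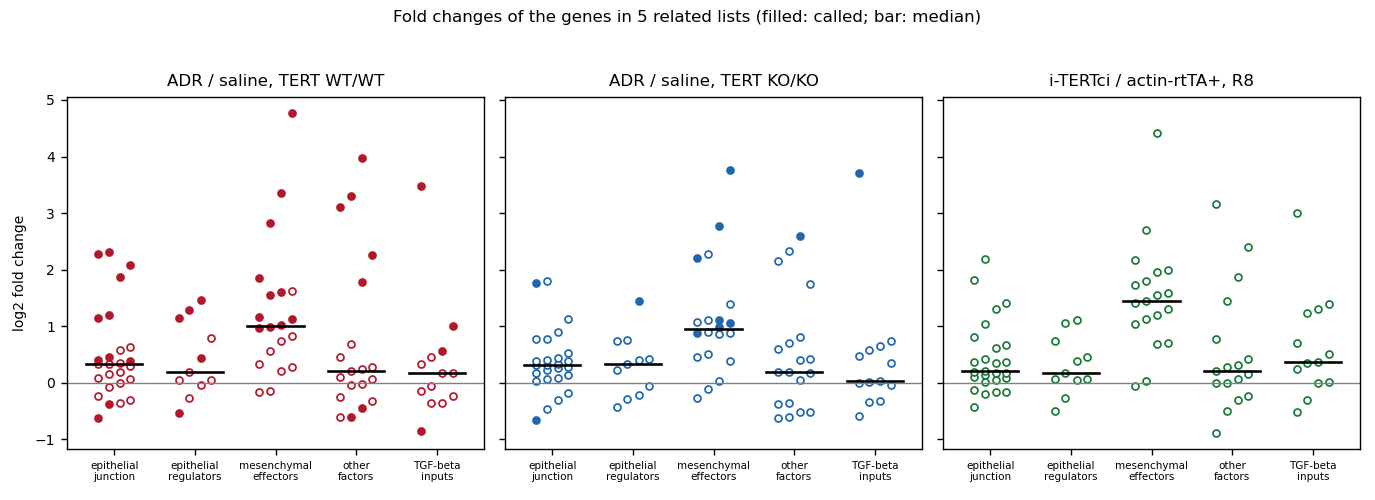
Log2 fold change (vertical axis) of each tested gene in 5 lists of genes related to EMT, in 3 comparisons; filled points passed an adjusted p of 0.05 in edgeR, open points did not, and the bar is the list's median. The medians of the mesenchymal effectors, 1.00, 0.95 and 1.44, are the highest of the 5 lists in each comparison.

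Markers of cell types were summed in the same libraries, and some sums differed between groups while others overlapped. The summed CPM of 10 fibroblast and pericyte markers was 541 to 1381 in TERT WT/WT ADR kidneys against 272 to 287 in TERT WT/WT saline, where 7 of 10 passed as higher and 1 as lower, and 653 to 1430 in TERT KO/KO ADR against 264 to 310.1 in TERT KO/KO saline. For 10 macrophage and monocyte markers it was 359 to 963 in TERT WT/WT ADR against 170 to 226 in TERT WT/WT saline, with 9 of 10 higher, and 226 to 775 in TERT KO/KO ADR against 174 to 203 in TERT KO/KO saline. At R8 the fibroblast sum was 480.0 to 3262 in i-TERTci against 314 to 474 in actin-rtTA+, and the macrophage sum 204 to 2033 against 151 to 209.7. The sums of 10 proximal tubule markers went the other way, with 4340.2 to 11937 in TERT WT/WT ADR against 13928 to 16494 in TERT WT/WT saline, and 7734 to 9394 in TERT KO/KO ADR against 11425 to 15080.0 in TERT KO/KO saline. In TERT WT/WT ADR 5 of these 10 passed as lower, and in TERT KO/KO ADR 0 did. For 8 podocyte markers the sum was 248 to 559 in TERT WT/WT ADR against 743 to 826 in TERT WT/WT saline, with 7 of 8 lower, and 415 to 509.9 in TERT KO/KO ADR against 601 to 729 in TERT KO/KO saline, with 2 of 8 lower. At R8 the proximal tubule sum was 4235 to 13834 in i-TERTci against 14262 to 18150.1 in actin-rtTA+, and the podocyte sum, 393 to 1108 against 613 to 780.5, reached both below and above the controls. The sum of 9 endothelial markers was 339.9 to 491 in TERT WT/WT ADR against 529 to 557 in TERT WT/WT saline, with 5 of 9 lower. It overlapped between groups in TERT KO/KO, at 396 to 533 in ADR against 509 to 569 in saline, and at R8, at 537 to 703 in i-TERTci against 615 to 651 in actin-rtTA+. For 8 lymphocyte markers it was 13.3 to 33.6 in TERT WT/WT ADR against 6.05 to 9.06 in TERT WT/WT saline, with 2 of 8 higher. It was 4.31 to 15.0 in TERT KO/KO ADR against 6.50 to 8.49 in TERT KO/KO saline, with 1 of 8 lower, and 56.7 to 129.6 in i-TERTci against 15.95 to 22.3 in actin-rtTA+, with 0 of 8 passing. The sum of 10 loop and distal nephron markers was 5837 to 8543 in TERT WT/WT ADR against 5455 to 7408 in TERT WT/WT saline, with 3 of 10 lower. It was 5333 to 8566 in TERT KO/KO ADR against 3879 to 4804 in TERT KO/KO saline, with 0 of 10 passing. The median log2 fold change of these markers in TERT KO/KO was -0.21, so the sum and the median differed in direction. At R8 the sum overlapped, at 3738 to 8030 in i-TERTci against 4099 to 6748 in actin-rtTA+. All sums here use library totals, while the fold changes and calls use TMM scaling. In TERT KO/KO ADR 4 of 10 fibroblast and 4 of 10 macrophage markers passed as higher, and at R8 0 of 10 did in each list by edgeR. Of all genes, 15.2% passed as higher and 12% as lower in TERT WT/WT ADR. In TERT KO/KO ADR the shares were 3.83% and 1.43%. With lists this short, a small count of markers that passed is not a result about a cell type. No fibroblast, macrophage, proximal tubule, podocyte, endothelial or nephron marker was at 0 counts in any library, and 1 lymphocyte marker was at 0 in TERT KO/KO ADR replicate 1 and 1 in TERT WT/WT ADR replicate 1. Their part in the values of Vim, Twist2, Cdh2 and Snai2 was not tested.

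The left-out TERT KO/KO ADR library labelled replicate 2 had 3503 counts for Cdh2, or 73.3 CPM of the library total, against 4.66 to 5.27 in TERT KO/KO saline. Cdh2 stood at 299 counts per 100 Cdh1 counts there, and Cdh1 itself at 24.5 CPM, against 100.3 to 133 in TERT KO/KO saline. The summed CPM of 10 hepatocyte markers was 323778 in this library, against 138 to 300.1 in TERT KO/KO saline. With liver transcripts at this level, its cadherin values cannot be read as a change in kidney. Vim had 28.1 CPM in it, against 59.6 to 77.4 in TERT KO/KO saline, and Twist2 had 3 counts. With this library put back, Vim in TERT KO/KO ADR against saline had a log2 fold change of 1.23 (adjusted p = 0.107), and 2 members, Vim and Twist2, still passed in TERT WT/WT, where 4.1% of all genes passed as higher, with Cdh2 (adjusted p = 0.484) and Snai2 (adjusted p = 0.2801) no longer called.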

How the data were processed

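Total RNA of whole kidneys was sequenced by the authors as paired-end libraries, trimmed with Trimmomatic and aligned with STAR to mm10. The deposited values are raw counts per gene, and the counting tool and strand setting are not given in the sources used here. Replicates are separate mice. Members and gene lists were chosen with earlier results of these data known. Symbols came from GENCODE M21, which matched 55230 of 55471 identifiers. The remaining values were computed here. Genes passing filterByExpr were tested with edgeR 4.0.16 (R 4.3.3) by TMM scaling and the robust quasi-likelihood F test, each experiment fitted on its own, 12 ADR or saline libraries and 7 R8 libraries, with a joint fit of 19 for the comparison between experiments. Standard errors are the log2 fold change over the root of F. All members were named. From each list, up to 4 genes that passed with the smallest p were named, or 1 where none passed. A gene of the TGF-beta list is not reported here. The alternatives were DESeq2 1.42.0, median-ratio factors, library totals, 2 filters, a replicate block, 2 groups alone, the left-out library put back, and each library left out. The fits were also run on counts simulated from the fitted edgeR model, which cannot test whether that model holds for these mice.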

Additional observations from a re-analysis of the deposited data

Results flagged for a closer look

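The TERT KO/KO ADR library labelled replicate 2, which no group mean uses, was above every TERT KO/KO saline library in 2 members. Cdh2 had 73.3 CPM of the library total in it, and Snai2 had 4.96 CPM, against 3.36 to 4.32 CPM in TERT KO/KO saline. The summed CPM of 10 hepatocyte markers was 323778 in that library, against 138 to 300.1 in TERT KO/KO saline. No member passed a test of the difference between genotypes or experiments.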

How the results depend on the processing

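The calls of 4 members in TERT WT/WT and of Vim in TERT KO/KO rest on 3 against 4 and 2 against 3 mice, so a missed threshold does not show equal levels. Counts of members called stayed within 1.5 times of those reported under median-ratio factors, no filter, a filter at a mean of 1 CPM (where Twist2 was not tested) and 2 groups alone. In TERT WT/WT, 2 members passed with the left-out library put back, in edgeR and in DESeq2. In TERT KO/KO, 2 passed with library totals, 2 in DESeq2, 0 with the left-out library put back and 2 in DESeq2 with it put back. In i-TERTci, DESeq2 called 5. Without each library in turn, the count ran from 0 to 3 in TERT KO/KO (0 on leaving out replicate 3 of TERT KO/KO ADR or of TERT KO/KO saline) and from 0 to 5 in i-TERTci. A replicate block changed no count of calls (4 in TERT WT/WT, 1 in TERT KO/KO, 0 elsewhere). The correlations of same-numbered deviations from group means ran from -0.54 to 0.52. With means of so few libraries, they cannot show whether replicate numbers paired the mice. Under the block Prrx1 in TERT WT/WT reversed to -0.030 on the log2 scale.

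The other reversals follow, and their cause was not tested. Library totals, DESeq2 with the left-out library put back, and the cadherin ratio were chosen after seeing the data. With library totals, Twist1 in TERT WT/WT was 0.066, and in TERT KO/KO Zeb1 was 0.10 and Zeb2 0.24. With the left-out library put back, the log2 fold changes in TERT KO/KO were -0.094 for Snai1, 0.66 for Snai2 and 0.16 for Zeb1 in edgeR, and -0.076, 0.68 and 0.17 in DESeq2. The difference between genotypes in the ADR response was then -0.37 for Vim and 2.55 for Cdh2 in edgeR, and -0.36 and 2.60 in DESeq2. The left-out library had 73.3 CPM of Cdh2 and 323778 summed CPM of hepatocyte markers, and without it the Cdh2 difference was -0.39 in edgeR. The difference for Vim was -0.022 at the filter of 1 CPM. Without each library in turn, log2 fold changes in TERT WT/WT ran from -0.33 to 0.0040 for Twist1, -0.0022 to 0.23 for Zeb2, -0.12 to 0.14 for Prrx1 and -0.071 to 0.28 for Cdh1. In TERT KO/KO they ran from -0.27 to 0.34 for Snai1, -0.68 to 0.013 for Snai2 and -0.27 to 0.16 for Zeb2. The difference between genotypes ran from -0.25 to 0.18 for Vim and from -1.04 to 0.038 for Cdh2. In i-TERTci log2 fold changes ran from -0.0040 to 0.22 for Zeb1 and from -0.024 to 0.47 for Cdh1. The difference in Cdh2 counts per 100 Cdh1 counts in TERT KO/KO ran from -0.27 to 1.39.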
